A study of Mus musculus with 16 samples.

Results

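Pol II and H2Bub1 were examined at 10 genes of the p53 pathway, Trp53, Mdm2, Mdm4, Cdkn1a, Cdkn2a, Bax, Bbc3, Ccng1, Sesn1 and Sesn2, by chromatin immunoprecipitation and sequencing (ChIP-seq) of mouse cells with and without the deubiquitylation adaptor ATXN7L3. The genes were taken by name from the GENCODE M21 annotation of the mm10 genome, and all 10 were found among 21938 protein-coding genes. Peaks of RNA polymerase II (Pol II, with an antibody against its subunit RPB1) and of histone H2B carrying 1 ubiquitin (H2Bub1) were compared between Atxn7l3+/+ (WT) and Atxn7l3-/- (KO) cells. The cells were mouse embryonic stem cells (mESCs), each line grown from a single blastocyst with LIF and the inhibitors PD0325901 and CHIR99021, and mouse embryonic fibroblasts (MEFs) taken from embryos at E10.5, which the study calls MEF-like in KO. The mutation was a germline deletion, all cells were of the strain DBA/2 x C57BL/6, and all chromatin was prepared with N-ethylmaleimide, which blocks deubiquitylation. Each of the 8 combinations of cell type, genotype and antibody was 1 library. The differences below therefore have no replicates behind them, and no test was run. How many reads stand behind each list is not known.

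The p53 protein is a transcription factor that is held at a low level by MDM2, a ubiquitin ligase, and by its relative MDM4. DNA damage, oncogenes or ribosomal stress release it, and it then binds response elements near genes that stop the cell cycle (Cdkn1a, Ccng1), start apoptosis (Bax, Bbc3) or protect against metabolic and oxidative stress (Sesn1, Sesn2), and near Mdm2 itself. H2Bub1 is placed on gene bodies behind transcribing Pol II by the RNF20 and RNF40 ligase and is removed by ubiquitin proteases that need ATXN7L3. Embryonic stem cells and cultured embryonic fibroblasts differ in how this pathway is used, with Cdkn2a kept low in stem cells and switched on as fibroblasts age in culture.

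The Pol II lists held 17074 (WT) against 11963 (KO) peaks in mESCs and 45870 against 32232 in MEFs. The length under H2Bub1 peaks was 71.6 Mb (WT) against 151.1 Mb (KO) in mESCs and 48.1 Mb against 223.0 Mb in MEFs. Pol II lay at 6 of 6 stem cell marker promoters in both mESC lists and at 6 of 6 fibroblast marker promoters in both MEF lists. Of 3 endothelial markers Kdr had a promoter peak in WT MEFs and Pecam1 in KO MEFs, and of the stem cell markers Tfcp2l1 had one in KO MEFs. Pol II lay at 4 of 4 Y-linked promoters in WT MEFs and at 0 of 4 in KO MEFs, so the sex of the embryos and the genotype cannot be told apart in MEFs. Atxn7l3 had a Pol II promoter peak of 3.61-fold (WT) against 3.71-fold (KO) in mESCs and of 20.9-fold against 23.4-fold in MEFs. The longest part of its body without H2Bub1 was 0 bp (WT) against 2750 bp (KO) in mESCs and 5078 bp against 2541 bp in MEFs. A gap was thus found in KO but not in WT in mESCs, and was longer in WT in MEFs. H2Bub1 covered 100% (WT) against 62.5% (KO) of this body in mESCs and 22.0% against 65.3% in MEFs. Its Pol II body peaks numbered 1 (WT) against 2 (KO) in mESCs and 0 against 2 in MEFs. Peaks were thus called in the body of the targeted gene in KO too, and their place relative to the deleted part was not tested.

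A Pol II peak overlapped the promoters of 9 of the 10 genes in all 4 Pol II lists. Here a promoter reached 1000 bp to each side of the transcription start site (TSS) of the gene record, and 1 bp of peak inside it counted. Among all protein-coding genes such a peak was found at 33.9% (WT) against 31.3% (KO) in mESCs and 54.1% against 51.1% in MEFs, and in both genotypes at 26.2% in mESCs and 49.6% in MEFs. The exception was Mdm4, whose gene record begins at a minor transcript. No member had a promoter peak in 1 genotype only. Among all genes 7.64% of mESC promoters had one in WT alone and 5.13% in KO alone, beside 4.41% and 1.46% of MEF promoters. In mESCs this count of 0 went to 1 in WT under a stricter -log10 q (Sesn1) or with other annotated starts (Mdm4), and to 1 in KO with the summit required inside the window (Bbc3). Under that summit rule 8 genes had a promoter peak in WT mESCs, 9 in KO mESCs and 7 in each MEF list. Bbc3 dropped out in WT mESCs, and Cdkn1a and Bbc3 dropped out in both MEF lists.

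The height of a peak is given as fold over the background of the same library, so that values within a list can be ordered, while a ratio of KO to WT compares the values of 2 lists and not amounts of Pol II. The median promoter fold of the 9 genes was 5.99 (WT) against 7.46 (KO) in mESCs and 21.4 against 23.8 in MEFs. Over all promoters with a peak it was 4.39, 4.53, 13.2 and 11.5 in the same order, so that higher values in MEFs were found over all promoters as well. Among the 9 genes, the MEF values of Cdkn1a and Bbc3 came from summits outside the window, as did that of Bbc3 in WT mESCs. The log2 ratio of KO to WT had a median of 0.09 over the 9 genes in mESCs and -0.06 in MEFs, beside 0.03 over 5751 promoters with a peak in both mESC lists and -0.23 over 10892 in both MEF lists. The fold was higher in KO at 5 of the 10 genes in mESCs and at 4 in MEFs, where all genes, those without a peak included, gave 13.8% and 16%. Among promoters with a peak in both genotypes this was 55.6% of the 9 genes beside 52.5% of all in mESCs, and 44.4% beside 32.3% in MEFs. Trp53, Cdkn1a and Bbc3 had a higher fold in KO in both cell types, and Cdkn2a, Bax and Sesn1 a lower fold in KO in both. At the downstream start of Cdkn1a, which gave its value in MEFs, the fold in mESCs was lower in KO. The MEF values of Bbc3 came from summits at +5484 (WT) and +5477 (KO). At a second start of Cdkn2a, 12461 bp downstream, the fold in MEFs was higher in KO.

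**Figure D1:**
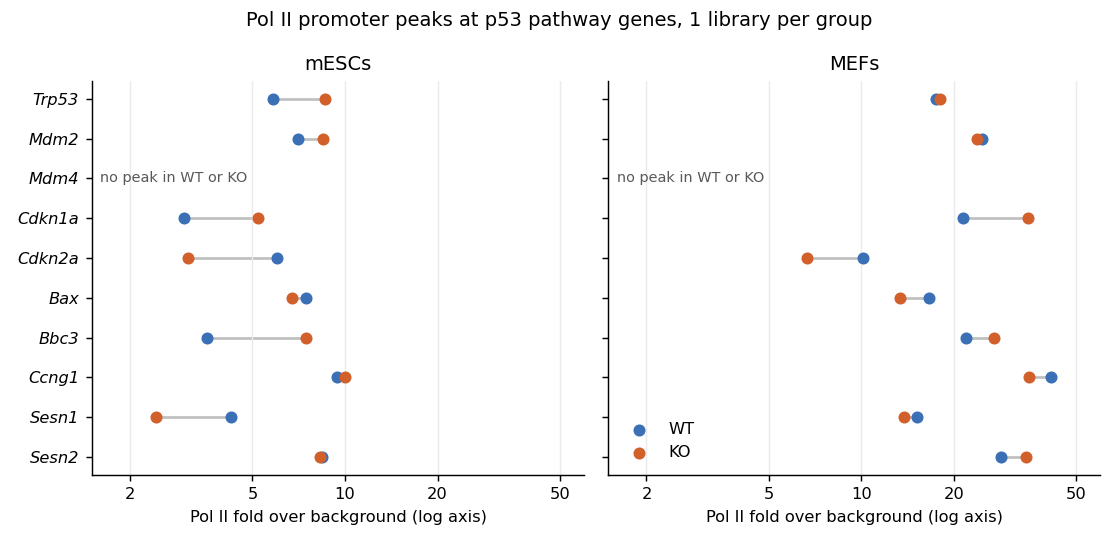
Fold over background of the highest Pol II peak in the promoter window of each gene (log axis) in mESCs and MEFs, with 1 point for the WT library and 1 for the KO library. Mdm4 has no peak in the window, Cdkn1a, Cdkn2a, Bbc3 and Sesn1 show the widest gaps in mESCs, and Ccng1 has the highest value of the WT MEFs at 41.5.

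H2Bub1 covered a larger share of the gene body in KO than in WT for 10 of the 10 genes in both cell types. Among all genes the share was higher in KO at 53.3% in mESCs and at 52.6% in MEFs, and among promoters with Pol II in both genotypes at 84.9% and 93.2%. The median share of the 10 genes in mESCs was 64.2% for WT (95% exact binomial interval over the genes 13.4 to 93.6) and 82.0% for KO (36.0 to 100). In MEFs it was 25.2% for WT (5.15 to 57.5) and 79.9% for KO (71.9 to 100). The intervals are those of a median, treat these chosen genes as independent draws, and hold no error between libraries. Over all genes with a Pol II promoter peak the median share was 17.4% and 40.8% in mESCs and 0.879% and 49.9% in MEFs. The median of the 10 genes was thus the higher in each of the 4 lists. The WT MEF value rests on weak calls: with the calls restricted to a -log10 q of 3 or more, 1 of the 10 genes (Cdkn1a) had H2Bub1 there and the median was 0%. In mESCs the medians were then 41.7% for WT and 73.3% for KO. The KO lists of H2Bub1 covered more of the genome in all, and the part of this in the shares was not tested.

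**Figure D2:**
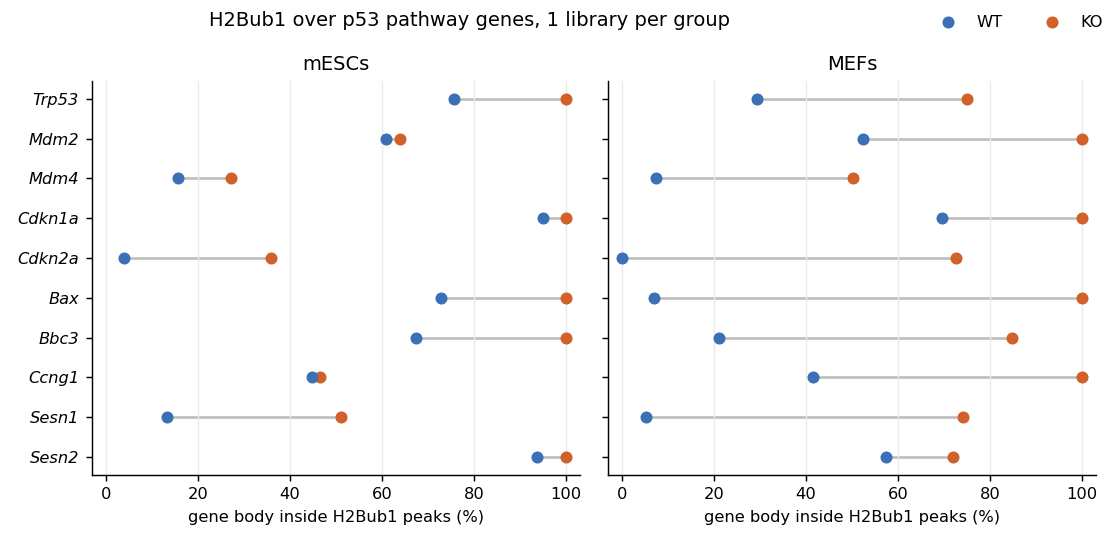
Share of the gene body from TSS to transcript end that lies inside H2Bub1 peaks, in percent, with 1 point for the WT library and 1 for the KO library. Every line runs from a lower WT value to a higher KO value, by 1.70 points for Ccng1 in mESCs at the least and by 93.0 points for Bax in MEFs at the most.

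The start sites themselves were mostly outside H2Bub1 in WT and inside it in KO. In WT mESCs the TSS of 2 genes, Trp53 and Ccng1, lay in an H2Bub1 peak (17.8% of all genes), and in KO mESCs that of 9 genes (38.6%). In WT MEFs it was 0 genes (3.48%) and in KO MEFs 8 genes (34.8%), all but Mdm4 and Bbc3. Among all promoters with Pol II the TSS was inside H2Bub1 at 43.3% (WT) against 81.0% (KO) in mESCs and 6.25% against 66.9% in MEFs. An H2Bub1 peak touched the body of 10 genes in both mESC lists (53.6% of all genes in WT and 60.8% in KO), of 9 genes in WT MEFs (30.4%) and of 10 genes in KO MEFs (53%). The gene without one in WT MEFs was Cdkn2a (22.9% of all genes had such a peak in KO MEFs alone), and no member had one in WT alone (2.97% in mESCs and 0.278% in MEFs). The whole body lay inside H2Bub1 at 5 genes in KO mESCs (4.95% of all genes), namely Trp53, Cdkn1a, Bax, Bbc3 and Sesn2, and at 4 genes in KO MEFs (5.75%), namely Mdm2, Cdkn1a, Bax and Ccng1.

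**Figure D3:**
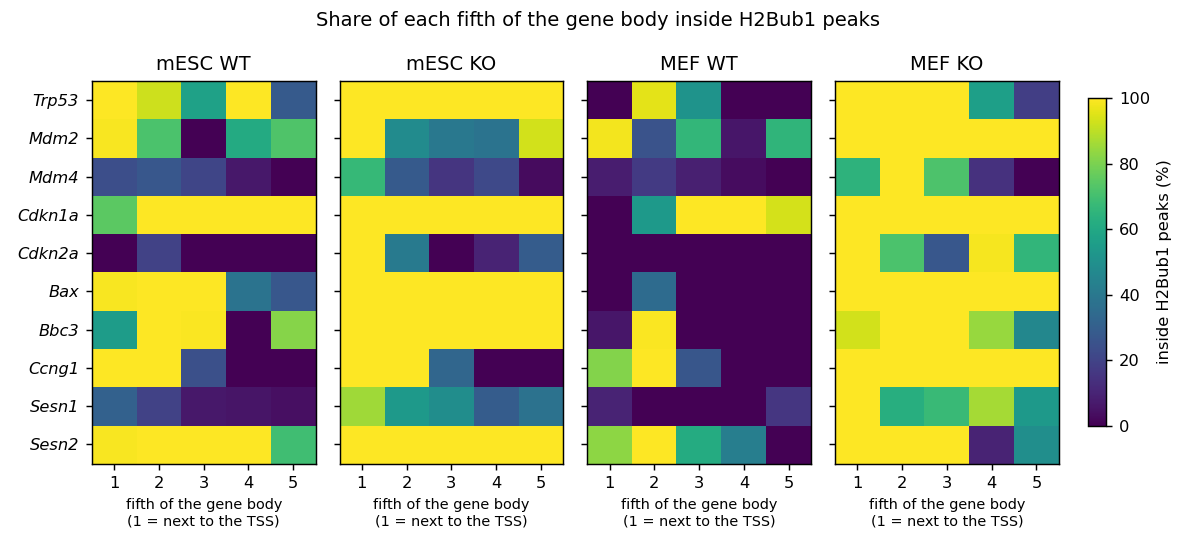
Percent of each of 5 equal parts of the gene body inside H2Bub1 peaks, from the part next to the TSS (1) to the part next to the transcript end (5), in the 4 H2Bub1 lists. In WT MEFs the first part is at 0% for Trp53, Cdkn1a, Cdkn2a and Bax, and in KO MEFs it is at 100% for these 4 genes.

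Trp53 (ENSMUSG00000059552, chr11:69580359-69591873, plus strand) encodes p53 itself. It starts 104 bp from Wrap53, a gene on the opposite strand whose product is needed for telomerase to reach telomeres, so that a Pol II promoter peak here cannot be assigned to either gene. The stretch between the 2 start sites, read on the plus strand from the GRCm38.p6 genome of RefSeq at chr11:69580256-69580358, is shown because it carries both promoters. Its capitals mark the only CCAAT box in it (on the other strand), and it holds no GGGCGG box on either strand.
Trp53 and Wrap53: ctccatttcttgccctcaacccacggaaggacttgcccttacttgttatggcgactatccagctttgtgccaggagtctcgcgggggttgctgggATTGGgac
The promoter fold was 5.83 (WT) against 8.58 (KO) in mESCs and 17.4 against 18.1 in MEFs. KO was thus 1.47 times WT in mESCs and 1.04 times in MEFs. The summit lay in an intron at +742 and +738 in mESCs but at the start itself, at -1 and +54, in MEFs. Pol II body peaks, with a summit more than 1000 bp from the TSS, numbered 2 in both mESC lists, and in MEFs 3 in WT but 0 in KO. H2Bub1 covered 75.6% of the body in WT and 100% in KO mESCs, and 29.4% and 75.0% in MEFs. The gap grew from 24.4 to 61.5 points in mESCs and from 45.6 to 71.3 in MEFs with a -log10 q of 3 or more. In WT MEFs the mark lay in 1 stretch from +2396 to +5786, with neither end of the gene covered. In WT mESCs it crossed the TSS from -76 on, and a separate peak lay upstream over Wrap53, from -9457 to -1139. In KO 1 stretch ran past the TSS over Wrap53, by 21.1 kb upstream of Trp53 in mESCs and by 16.6 kb in MEFs.

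Mdm2 (ENSMUSG00000020184, chr10:117688875-117710758, minus strand) encodes the ligase that ubiquitylates p53 and is itself a p53 target. Its promoter fold was 7.03 (WT) against 8.48 (KO) in mESCs and 24.7 against 23.8 in MEFs. The order of the genotypes was thus opposite in the cell types, with ratios of 1.21 and 0.962. The summit of the promoter peak was in an intron in mESCs, at +537 in WT and +638 in KO, and in an exon in MEFs, at +109 and +117. The gene has a second, intronic promoter that responds to p53, and the 20 bases shown here lie at +634 to +653 (chr10:117710105-117710124, minus strand). They match the p53 response element with 3 mismatches, with the core of both decamers in capitals.
Mdm2 intronic element: ggtCAAGttgggaCACGtcc
An internal peak was present in all 4 lists, with summits at +4099 and +3972 in mESCs (3.69-fold and 6.51-fold) and at +3807 and +3856 in MEFs (12.2-fold and 8.19-fold). MEFs held 12 body peaks in each genotype and mESCs 1, more in MEFs than any other member but Mdm4 in WT. H2Bub1 covered 61.0% of Mdm2 in WT and 64.0% in KO mESCs, a gap of 3.02 points. In MEFs it covered 52.4% in WT, in 4 stretches, and 100% in KO, in 1 stretch of the whole 21.9 kb. With a -log10 q of 3 or more the gap was 5.51 points in mESCs and 100 in MEFs, where it had been 47.6.

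Mdm4 (ENSMUSG00000054387, chr1:132959484-133030561, minus strand) encodes a relative of MDM2 that binds and silences the transactivation domain of p53. The gene record starts with 1 transcript, at which no Pol II peak was found in any list. A group of 4 transcripts starts 5145 bp downstream, and the 150 bases around that start (chr1:133025387-133025536, minus strand, RefSeq GRCm38.p6) are shown because Pol II lay there. Capitals mark the first 30 transcribed bases.
Mdm4 downstream start: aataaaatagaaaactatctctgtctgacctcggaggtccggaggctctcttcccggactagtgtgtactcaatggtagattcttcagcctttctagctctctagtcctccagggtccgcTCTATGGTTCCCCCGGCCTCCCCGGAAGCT
A Pol II summit within 500 bp of this start had a fold of 3.87 in WT mESCs, was not called in KO mESCs, and had folds of 17.8 in WT and 19.5 in KO MEFs. Pol II was thus called at this start in 3 of 4 lists. Body peaks numbered 8 (WT) against 2 (KO) in mESCs and 13 against 4 in MEFs, the start peak included. Many lay in a cluster of intronic peaks, in WT MEFs from +44612 to +56203, where KO MEFs had 1 peak, with its summit at +53258. H2Bub1 covered 15.7% (WT) against 27.2% (KO) in mESCs and 7.42% against 50.2% in MEFs. In KO MEFs the mark began at +5029, next to the downstream start, and ran on for 31.5 kb.

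Cdkn2a (ENSMUSG00000044303, chr4:89274471-89294653, minus strand) encodes 2 unrelated proteins from 2 start sites, ARF, which binds MDM2 and so releases p53, from the upstream start, and p16INK4a, an inhibitor of the kinases CDK4 and CDK6, from the downstream start. The starts lie 12461 bp apart, so that Pol II could be read at each alone. The 150 bases around each start are shown for comparison, from RefSeq GRCm38.p6 on the minus strand (chr4:89294624-89294773 and chr4:89282163-89282312), with the first 30 transcribed bases in capitals.
ARF start: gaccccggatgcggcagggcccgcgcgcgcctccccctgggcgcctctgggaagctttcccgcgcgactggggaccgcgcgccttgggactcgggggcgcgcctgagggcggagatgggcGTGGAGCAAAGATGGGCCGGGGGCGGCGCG
p16INK4a start: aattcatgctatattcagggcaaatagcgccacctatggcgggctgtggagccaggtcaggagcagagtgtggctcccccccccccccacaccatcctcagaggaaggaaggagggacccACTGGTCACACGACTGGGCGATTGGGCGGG
At the ARF start the fold was 5.99 (WT) against 3.09 (KO) in mESCs and 10.1 against 6.68 in MEFs. KO was thus 0.516 times WT in mESCs and 0.658 times in MEFs, and among promoters with a peak the KO mESC value stood at the 6.28 percentile, after the 78.4 percentile in WT. At the p16INK4a start no summit was called in either mESC list, and the fold was 6.48 in WT and 8.89 in KO MEFs. The ratio at this start was 1.37, opposite in direction to that at the ARF start of the same cells. H2Bub1 covered 3.92% (WT) against 36.0% (KO) of the gene in mESCs and 0% against 72.6% in MEFs. Cdkn2a had the lowest share of the 10 genes in both WT lists. In KO MEFs 1 stretch covered the ARF start from -2720 on for 6.92 kb of the body, and another the p16INK4a start up to +18801. The neighbour Cdkn2b starts 16386 bp upstream.

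Cdkn1a (ENSMUSG00000023067, chr17:29090976-29100727, plus strand) encodes p21, the inhibitor of cyclin-dependent kinases through which p53 stops the cell cycle. It too has 2 main starts, 1 at the gene record and 1 at +2793. Both are shown on the plus strand from RefSeq GRCm38.p6 (chr17:29090859-29091008 and chr17:29093649-29093798), with the first 30 transcribed bases in capitals.
Cdkn1a upstream start: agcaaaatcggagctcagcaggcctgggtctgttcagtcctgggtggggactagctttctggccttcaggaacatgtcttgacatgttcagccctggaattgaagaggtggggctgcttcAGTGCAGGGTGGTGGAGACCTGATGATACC
Cdkn1a downstream start: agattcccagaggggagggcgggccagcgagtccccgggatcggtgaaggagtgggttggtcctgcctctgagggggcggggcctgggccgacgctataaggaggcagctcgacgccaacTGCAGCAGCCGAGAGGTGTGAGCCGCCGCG
The upstream stretch holds the closest match to a p53 response element found within 3000 bp of the TSS of any member, with 1 mismatch, as have 2 sites of Ccng1. It lies at -48 to -29 (chr17:29090928-29090947) and is printed with the core of both decamers in capitals.
Cdkn1a element: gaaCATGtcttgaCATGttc
Around the upstream start mESCs had a separate small peak, of 3.00-fold in WT with its summit at -85 and of 5.20-fold in KO with its summit at -174. At the downstream start the fold was 14.2 in WT and 12.6 in KO mESCs. KO was thus 1.73 times WT at the upstream start and 0.887 times at the downstream start, and the latter carried the higher peak in both genotypes. In WT MEFs 1 peak of 12191 bp ran from -1367 to +10823 over the whole gene, with a fold of 21.4 and its summit at +2847. In KO MEFs a peak from -1055 to +6892 had a fold of 34.7 and its summit at +2839, and another peak followed with its summit at +9208. The value in the promoter window of MEFs thus belongs to the downstream start, and KO was 1.62 times WT there. H2Bub1 covered 94.9% of the body in WT and 100% in KO mESCs, and 69.6% and 100% in MEFs. Without the first 1000 bp of the body the gap in mESCs, 5.08 points, was 0, which left 9 of the 10 genes with a higher share in KO there. In WT the stretch over the body began at +495 in mESCs and at +2846, just behind the downstream start, in MEFs. In KO it covered the upstream start and the element in both cell types, reaching 37.7 kb upstream in mESCs and 2.87 kb in MEFs.

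**Figure D4:**
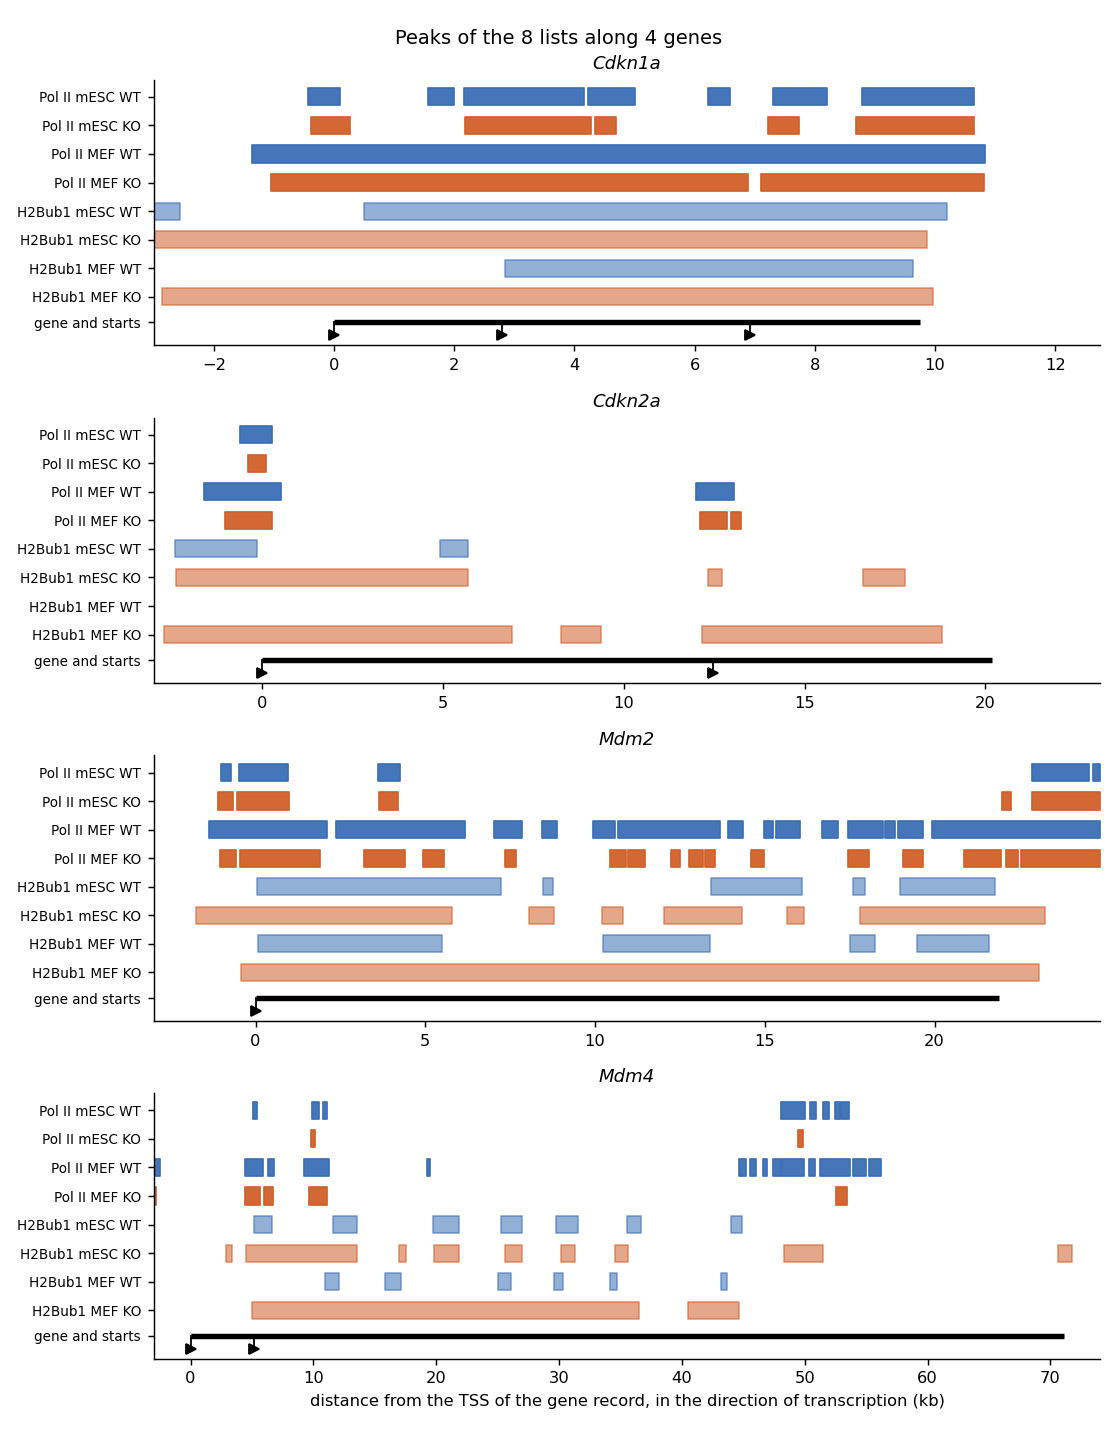
Peaks of the 8 lists along Cdkn1a, Cdkn2a, Mdm2 and Mdm4, with the distance from the TSS of the gene record in kb on the x axis, 1 row per list (WT blue, KO orange, H2Bub1 in paler colour), and the gene as a black bar with its annotated starts as arrowheads. At Cdkn1a the WT H2Bub1 stretch over the body begins at +495 bp in mESCs and +2846 bp in MEFs, at Cdkn2a the WT MEF row of H2Bub1 is empty, and at Mdm4 a Pol II peak lies at the start at +5145 bp in each list but that of KO mESCs.

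Ccng1 (ENSMUSG00000020326, chr11:40748552-40755311, minus strand) encodes cyclin G1, a p53 target that recruits a phosphatase to MDM2. Its promoter fold was 9.39 (WT) against 10.0 (KO) in mESCs and 41.5 against 35.0 in MEFs. It was the highest of the members in each list at the TSS of the gene record, though in mESCs the downstream start of Cdkn1a stood higher, and lay at the 94.6 and 95.4 percentile of promoters with a peak in mESCs and the 99.8 and 99.3 percentile in MEFs. KO was 1.07 times WT in mESCs and 0.844 times in MEFs, so the order of the genotypes was opposite. Matches to the p53 response element with 1 mismatch lie on both sides of the TSS, at -170 to -151 (chr11:40755462-40755481) and at +356 to +375 (chr11:40754936-40754955), both on the minus strand and both inside the Pol II promoter peak of all 4 lists.
Ccng1 upstream element: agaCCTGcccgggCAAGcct
Ccng1 downstream element: acgCAAGcccgggCTAGtct
Body peaks numbered 2 (WT) against 0 (KO) in mESCs and 2 against 4 in MEFs. H2Bub1 covered 44.9% in WT and 46.6% in KO mESCs. In MEFs it covered 41.6% in WT and 100% in KO, a gap of 58.4 points that became 100 at the stricter -log10 q. The mark ended at about the same distance in 3 lists, at +3035 (WT) and +3150 (KO) in mESCs and at +3064 in WT MEFs, and ran beyond the transcript end in KO MEFs only, to +8616.

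Bax (ENSMUSG00000003873, chr7:45461697-45466898, minus strand) encodes a pore-forming protein of the mitochondrial outer membrane. Its promoter fold was 7.49 (WT) against 6.73 (KO) in mESCs and 16.6 against 13.4 in MEFs. KO was 0.898 and 0.804 times WT. A match to the p53 response element with 2 mismatches lies at +305 to +324 (chr7:45466574-45466593, minus strand), inside the Pol II promoter peak of all 4 lists.
Bax element: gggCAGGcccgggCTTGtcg
No body peak was called in mESCs and 1 in each MEF list. H2Bub1 covered 72.9% (WT) against 100% (KO) in mESCs and 6.98% against 100% in MEFs. In WT MEFs this was 1 peak of 363 bp, from +1285 to +1647. The gene Ftl1, for the light chain of ferritin, starts 7014 bp downstream on the same strand, and in KO 1 H2Bub1 peak ran through Bax into it, to +12469 in mESCs and +11093 in MEFs. Coverage at the 3' end of Bax can therefore not be told apart from that of the Ftl1 region. At the 5' end, the first 915 bp of Bax lie within the gene Gm45808 on the same strand, so that the Pol II and H2Bub1 of both genes cannot be told apart there.

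Bbc3 (ENSMUSG00000002083, chr7:16308393-16318205, plus strand) encodes PUMA, a BH3-only protein that frees BAX and BAK. Its promoter fold was 3.56 (WT) against 7.46 (KO) in mESCs and 21.9 against 26.9 in MEFs. The ratio of 2.09 in mESCs was the highest of the members, and that in MEFs was 1.23. In mESCs the summits were at +1112 and +971, near an annotated start at +1223, and a match to the p53 response element with 3 mismatches lies beside them, at +1093 to +1112 (chr7:16309486-16309505, plus strand).
Bbc3 element: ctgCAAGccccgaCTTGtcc
In MEFs 1 peak, 6035 bp wide in WT and 5930 bp wide in KO, covered the first part of the gene, with summits deep in the body at +5484 and +5477, so that the window value there is not that of a start. The WT mESC summit also lay just outside the promoter window. Body peaks numbered 5 in WT and 1 in KO mESCs. H2Bub1 covered 67.3% (WT) against 100% (KO) in mESCs and 21.0% against 84.7% in MEFs. The gap in mESCs, 32.7 points, was 49.0 with a -log10 q of 3 or more. In KO MEFs the mark began at +135, which left the TSS outside it.

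Sesn1 (ENSMUSG00000038332, chr10:41809935-41908424, plus strand) and Sesn2 (ENSMUSG00000028893, chr4:132492032-132510501, minus strand) encode sestrins, stress proteins that restrain the growth kinase complex mTORC1. Sesn1 is the longest member, at 98.5 kb, and starts 64 bp from Cep57l1, a gene on the opposite strand that is related to a centrosomal protein gene. The stretch between the 2 starts (chr10:41809872-41809934, plus strand, GRCm38.p6) is shown as the shared promoter. It holds no CCAAT and no GGGCGG box on either strand.
Sesn1 and Cep57l1: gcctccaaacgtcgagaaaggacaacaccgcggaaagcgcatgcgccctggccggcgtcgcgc
At this divergent start the fold was 4.25 (WT) against 2.44 (KO) in mESCs and 15.2 against 13.7 in MEFs. KO was 0.573 times WT in mESCs, where the KO value stood at the 0.320 percentile of promoters with a peak, and 0.906 times in MEFs. At the second start of Sesn1, 77504 bp downstream, the fold was 3.19 (WT) against 2.54 (KO) in mESCs and 10.8 against 8.63 in MEFs. The order of the genotypes was thus the same at both starts, and no other Pol II body peak was called in the gene in any list. H2Bub1 covered 13.4% (WT) against 51.1% (KO) in mESCs and 5.15% against 74.1% in MEFs. The gap in mESCs, 37.7 points, fell to 10.3 with a -log10 q of 3 or more. In length this was 13.2 kb and 50.3 kb in mESCs and 5.07 kb and 73.0 kb in MEFs, the largest gain in bases of the 10 genes.

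Sesn2 had a promoter fold of 8.43 (WT) against 8.28 (KO) in mESCs and 28.5 against 34.3 in MEFs. KO was thus 0.983 and 1.20 times WT, opposite in direction. Body peaks numbered 1 in each mESC list, and in MEFs 8 in WT but 0 in KO, although the promoter fold was the higher in KO. The gene Gm12981, which the annotation places on the same strand, overlaps Sesn2 over 6089 bp. H2Bub1 covered 93.6% (WT) against 100% (KO) in mESCs and 57.5% against 71.9% in MEFs. This gap of 14.4 points became 62.0 with a -log10 q of 3 or more and 4.54 with equal numbers of peaks.

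Over the 10 genes, Pol II body peaks were called in mESCs at 8 genes for WT (17.1% of all genes) and 7 for KO (11.2%), and in MEFs at 10 for WT (31.8%) and 8 for KO (25.1%). In mESCs 4 genes had fewer body peaks in KO (11.8% of all genes), namely Mdm4, Cdkn1a, Bbc3 and Ccng1, and 0 had more (3.96%). In MEFs 3 had fewer (20.4%), namely Trp53, Mdm4 and Sesn2, and 4 had more (9.03%), namely Cdkn1a, Cdkn2a, Bbc3 and Ccng1. Mdm4 was the gene with fewer in both cell types. The KO lists also held fewer Pol II peaks in all. With equal numbers of peaks, a body peak was called in mESCs at 6 genes for WT and 7 for KO, the opposite order, with fewer in KO at 2 genes and more at 1, while MEFs stayed at 10 and 8 genes. At Cdkn1a and Cdkn2a the higher count in KO MEFs came from 2 peaks in place of 1 in WT, of 7948 and 3709 bp against 12191 bp and of 725 and 276 bp against 1049 bp, so that the length under peaks was not higher. At Ccng1 the added KO peaks, from +1063 to +1506 and from +6368 to +6653, lay inside WT peaks whose summits fell outside the counted body. The same held for the added Bbc3 peak, from +9105 to +9534, inside a WT peak from +8296 to +11566.

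Matches to the p53 response element, a pair of decamers with no spacer and a fixed C and G in the core of each, were searched on both strands within 3000 bp of the TSS of the gene record. With at most 2 mismatches 3 of the 10 genes had a match, Cdkn1a, Bax and Ccng1, beside 10 of 60 other genes of the pathway and 5.91% of all genes. With at most 3 mismatches, a limit chosen after seeing the data, it was 8 of 10, beside 22 of the 60 and 25.9% of all genes. The added members were Trp53, Mdm2, Mdm4, Cdkn2a and Bbc3. Of the 10 matches found at the members, those of Mdm4 and Cdkn2a lay wholly inside no peak of the 8 lists. The Trp53 match lies at -75 to -56 (chr11:69580284-69580303), inside the stretch it shares with Wrap53.
Trp53 element: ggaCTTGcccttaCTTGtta
In KO cells of both types, the elements of Trp53, Mdm2, Cdkn1a, Bax and Bbc3 and the downstream one of Ccng1 were inside H2Bub1 peaks. In WT mESCs the same held for each of these but that of Cdkn1a. In WT MEFs those of Mdm2 and the downstream one of Ccng1 were, and no other. A match is a sequence description, and p53 itself was not measured. In the RefSeq promoter windows of 300 bp, GGGCGG was present on either strand in 11 of the 16 windows of these genes (35.7% of 32851 windows), CCAAT in 8 (37.4%) and TATAAA in 1 (13.6%).

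The same measures were taken for 60 other genes of the pathway, in 5 groups by role. A Pol II promoter peak was present at 39 of the 60 in each mESC list (33.9% of all genes in WT and 31.3% in KO), at 53 in WT MEFs (54.1%) and at 51 in KO MEFs (51.1%). The log2 ratio of KO to WT had a median of 0.07 over 35 genes in mESCs and -0.24 over 51 in MEFs, close to the medians of all promoters. H2Bub1 was higher in KO at 48 and lower at 6 of the 60 in mESCs (lower at 9.34% of all genes), and higher at 52 and lower at 1 in MEFs (0.506%).

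By role, the median share of the 15 regulators of p53, such as the kinase genes Atm and Chek2, was 7.87% (WT) against 19.3% (KO) in mESCs and 3.07% against 34.6% in MEFs. The 11 cell cycle targets had 80.4% and 100% in mESCs and 13.7% and 100% in MEFs, the highest medians of the 5 groups in KO. The 18 apoptosis targets had 37.9% and 59.5% in mESCs and 1.75% and 55.3% in MEFs. The 13 repair and metabolism targets had 10.9% and 33.4% in mESCs and 0% and 32.3% in MEFs. The 3 secreted targets had 0% and 6.81% in mESCs and 20.6% and 54.0% in MEFs. The groups differed in gene length. Cell cycle targets ran from 1460 bp (Rprm) to 16829 bp (Gtse1), and regulators from 7224 bp (Kat5) to 208340 bp (Trp63). The part of length in these medians was not tested.

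Pol II promoter calls in 1 genotype only were found at 4 of the 60 genes in WT (7.64% of all genes) and at 4 in KO mESCs (5.13%), a share near that of all genes. The highest in WT only were Polk, a DNA polymerase for damaged templates (4.39-fold), Dram1, an autophagy gene (4.30-fold), and Usp7, the protease that takes ubiquitin off MDM2 and p53 (4.02-fold). The highest in KO only were Sesn3, the third sestrin gene (7.29-fold), Bak1, the partner of Bax at mitochondria (4.0-fold), and Shisa5 (3.94-fold). For Sesn3 the nearest WT peak lay 1300 bp from the TSS, just outside the window. In MEFs 2 genes were called in WT only (4.41% of all genes), the stress cytokine gene Gdf15 (7.93-fold) and Rprm (3.57-fold), and 0 in KO only (1.46%). In H2Bub1, the largest gaps in mESCs were those of Sfn with 63.7 points, Cdkn2b with 62.1 and Zmat3 with 61.3. In MEFs Cdkn2b, the neighbour of Cdkn2a, Plk3 and Pmaip1, which encodes the BH3-only protein NOXA, each went from 0% to 100%. The lower shares in KO were led by Rprm (-33.6 points), Igfbp3 (-31.4) and Ei24 (-16.9) in mESCs, and Thbs1 was the 1 gene lower in KO MEFs (-7.10).

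**Figure D5:**
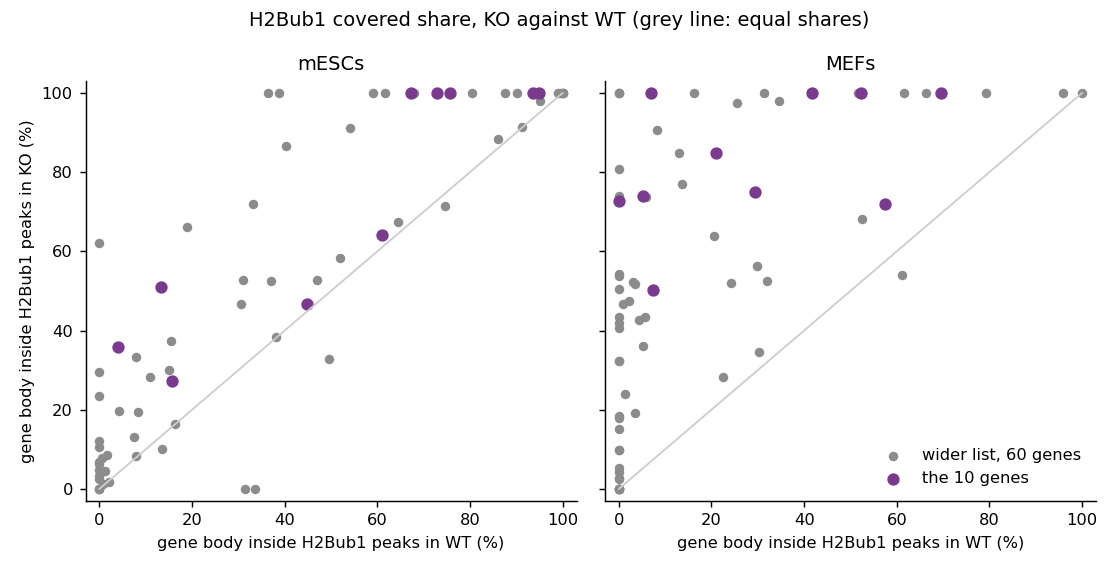
Share of the gene body inside H2Bub1 peaks in KO (y axis, percent) against WT (x axis, percent), for the 10 genes (purple) and 60 other genes of the pathway (grey), with a line where both are equal. In MEFs all 10 genes and 52 of the 60 lie above the line, and many grey points stand at 0% in WT.

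For each gene but Mdm2 and Mdm4, the protein-coding gene with the most similar values was found from the mean absolute difference of percentile ranks over the 8 libraries. The closest pair was Ccng1 with the splicing factor gene Hnrnph1, at 0.719 percentile points, followed by Cdkn1a with the chaperone gene Dnajb1 at 1.53 and Sesn2 with the ribosomal protein gene Rpsa at 1.65. Bax was nearest to Zfp219 at 1.98, Sesn1 to Orc6 at 2.21, Trp53 to Dvl2 at 2.87 and Bbc3 to Sertad1 at 2.88. Cdkn2a stood farthest from its nearest gene, Ankrd28, at 3.77. None of these nearest genes was itself a member.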

How the data were processed

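Reads of 50 bases were placed on mm10 by the authors with Bowtie 1.0.0, and MACS2 2.1.1.20160309 gave 1 peak list per library (versions per the submitters' processing notes). The control and the thresholds are not given in the sources used here. H2Bub1 was scaled by the authors over intergenic regions and Pol II by total reads, and how this entered the calls is not stated. The fold deposited with each peak is a ratio of pileup to local background, beside which the authors give the -log10 p and -log10 q of each peak and a display score that was not used. Since read depth is unknown, a deeper library can yield more and wider peaks.

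Coordinates were made 1-based and set on GENCODE M21. The body ran from TSS to transcript end, and an H2Bub1 share is the covered length over the body length. The 10 genes and the lists of related genes were chosen with earlier results of these data known. All 10 genes are named. From the 60 related genes, the 3 highest folds of promoters called in 1 genotype, for each genotype, the 3 largest rises and up to 3 falls in H2Bub1 share per cell type are named, and for each of the 10 genes but Mdm2 and Mdm4 the 1 gene nearest in percentile ranks. Mdm4 was left out because its Pol II lay at a start other than that of the gene record. Cdkn1a and Bbc3 were kept, though their MEF values also came from summits outside the promoter window, so their nearest genes rest partly on such values. The gene nearest to Mdm2 is not reported here. With 1 library per group no test was run, and intervals of medians are exact binomial over genes. Sequences came from RefSeq GRCm38.p6, in whose promoter table all 10 genes were found. The measures were tested on simulated peaks placed on real genes. Alternatives were another promoter window, the summit or any annotated TSS, equal numbers of peaks, a -log10 q of 3 or more, joined peaks, and a body without its first 1000 bp. The input libraries and those for Pol II phosphorylated at serine 2, 8 samples, were not analysed here. The software was pandas 2.3.3, numpy 2.4.6 and matplotlib 3.10.9 in Python 3.11.15.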

Additional observations from a re-analysis of the deposited data

Results flagged for a closer look

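At 4 genes the Pol II fold differed in opposite directions between WT and KO in the cell types. For Sesn2 the ratio of KO to WT was 0.983 in mESCs and 1.20 in MEFs. For Mdm2 it was 1.21 in mESCs and 0.962 in MEFs, with the summits in mESCs at +537 and +638 and those in MEFs at +109 and +117. For Ccng1 it was 1.07 in mESCs and 0.844 in MEFs. At the downstream start of Cdkn1a, +2793 bp from the TSS of the gene record, it was 0.887 in mESCs and 1.62 in MEFs. With 1 library per group the difference between the cell types was not tested. Over all promoters with a peak in both genotypes the median log2 ratio also differed in sign, 0.03 in mESCs and -0.23 in MEFs, which is the direction of Mdm2 and Ccng1 and not that of Sesn2 and Cdkn1a.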

How the results depend on the processing

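Of the values that answer a comparison, 129 stayed within 1.5 times the main value (counts) or within its interval (medians) and 9 moved. Among the 10 genes the number with Pol II in WT only in mESCs went from 0 to 1 with a -log10 q of at least 3 (Sesn1), to 1 with any annotated TSS (Mdm4), and to 1 with a summit within 500 bp of any annotated start (Mdm4), a setting chosen after seeing the data. The number in KO only in mESCs went from 0 to 1 with the summit inside the window (Bbc3). In alternatives chosen after seeing the data, equal numbers of peaks took the genes with fewer Pol II body peaks in KO mESCs from 4 to 2 and those with more from 0 to 1, and 1 bp of peak in the body took those with more in KO MEFs from 4 to 2. With a -log10 q of at least 3 the genes with an H2Bub1 body peak in WT MEFs went from 9 to 1 (Cdkn1a), and their median covered share from 25.2% to 0%. With any annotated TSS the log2 ratio of Cdkn1a in mESCs reversed from 0.79 to -0.17, because its downstream start carries the higher peak. Of the other values 90 were identical and 44 changed by any amount without reversing, mostly H2Bub1 differences of single genes, the one of Cdkn1a in mESCs to 0 without the first 1000 bp of the body. The H2Bub1 lists have almost no gaps under 1000 bp, so joining peaks was no strong test. No paired analysis was possible because each group had 1 library. Without replicates or read depths, none of the differences between WT and KO can be set against an error.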
